A study of Mus musculus with 2 samples.

Results

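The genes described here carry the symbols of ciliary axoneme proteins: Cfap followed by a number (cilia and flagella associated proteins), Rsph (radial spoke heads), Tekt (tektins), Spag (sperm associated antigens), Spef (sperm flagellar proteins) and Drc (the nexin-dynein regulatory complex). The symbol alone decided whether a gene is a member, but the symbol rule was chosen with earlier results of these data known. They are 57 of the 54674 genes listed in either table: 26 Cfap, 8 Rsph, 5 Tekt, 13 Spag, 2 Spef and 3 Drc genes. The adult table lists 55 of them among 27998 genes and the P4 table all 57 among 53573, since Cfap65 and Drc3 have no row under these symbols in the adult table. The samples are oviduct cells of C57BL/6 mice, taken from adults at estrus and from mice at postnatal day 4 (P4), dissociated with enzymes and sorted with antibodies to Epcam, on epithelial cells, and CD45, on leukocytes. Each age is 1 library, profiled with a droplet method that counts unique molecular identifiers (UMI) at the 3′ end of transcripts. The labels give no genotype beyond the strain and no number of animals.

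An axoneme is the shaft of a motile cilium: outer doublet microtubules surround a central pair, and dynein arms on the doublets slide them against each other. Proteins inside the doublet lumen brace the wall, radial spokes and the central pair pass signals to the dyneins, and the nexin-dynein regulatory complex links neighbouring doublets and helps turn sliding into bending. In the oviduct these parts are built in multiciliated cells, which beat fluid and eggs along the tube beside secretory cells.

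Levels are pooled UMI of a gene per 10000 UMI of a group of cells, with exact 95% Poisson intervals in brackets. Because reads come from the 3′ end, levels of different genes were not divided by length. With 1 library per age no p-value was computed: the intervals cover counting error only, and cells are not replicates. The adult library held 1401641 UMI in 406 cells and the P4 library 2123202 UMI in 263 cells. Cells were grouped by the authors' cluster numbers. Adult clusters 3 (37 cells) and 1 (183 cells) carried the multiciliated markers that are not members, such as Foxj1, the transcription factor that switches on motile cilium genes: the 15 markers summed to 95.5 UMI per 10000 in cluster 3, 138.4 in cluster 1 and 3.45 in cluster 0 (130 cells, secretory-like). Epithelial markers summed to 70.4, 29.5 and 57.5 and immune markers to 1.95, 0.473 and 0.994 in clusters 3, 1 and 0. Of the 8 immune markers, Ptprc, Cd74, Cd3e, Cd79a, Tyrobp and Fcer1g had no UMI in cluster 3, so its sum came from Cd52 and Lyz2. No P4 cluster was made of cells with the multiciliated markers, and 6 P4 cells stood out, as described further on.

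The members together made up 59.5 UMI per 10000 (55.3 to 64.0) in adult cluster 3, 77.2 (75.0 to 79.5) in cluster 1 and 4.97 (4.38 to 5.62) in cluster 0. The remaining adult clusters held 7.20 (5.23 to 9.67) in cluster 4 and 9.73 (7.99 to 11.7) in cluster 5. P4 cluster 0 held 9.61 (9.12 to 10.1) and P4 cluster 1 held 5.13 (4.60 to 5.71). Among the authors' clusters, adult clusters 3 and 1 had the high levels, and all others lay at or below 9.73. Within cluster 5 the signal was uneven: 1 cell with 22 members detected held 35.8% of the cluster's member UMI, and without it the cluster stood at 6.63 UMI per 10000. That value still includes another cell with 17 members and 28 member UMI, or 34.3 per 10000.

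**Figure D1:**
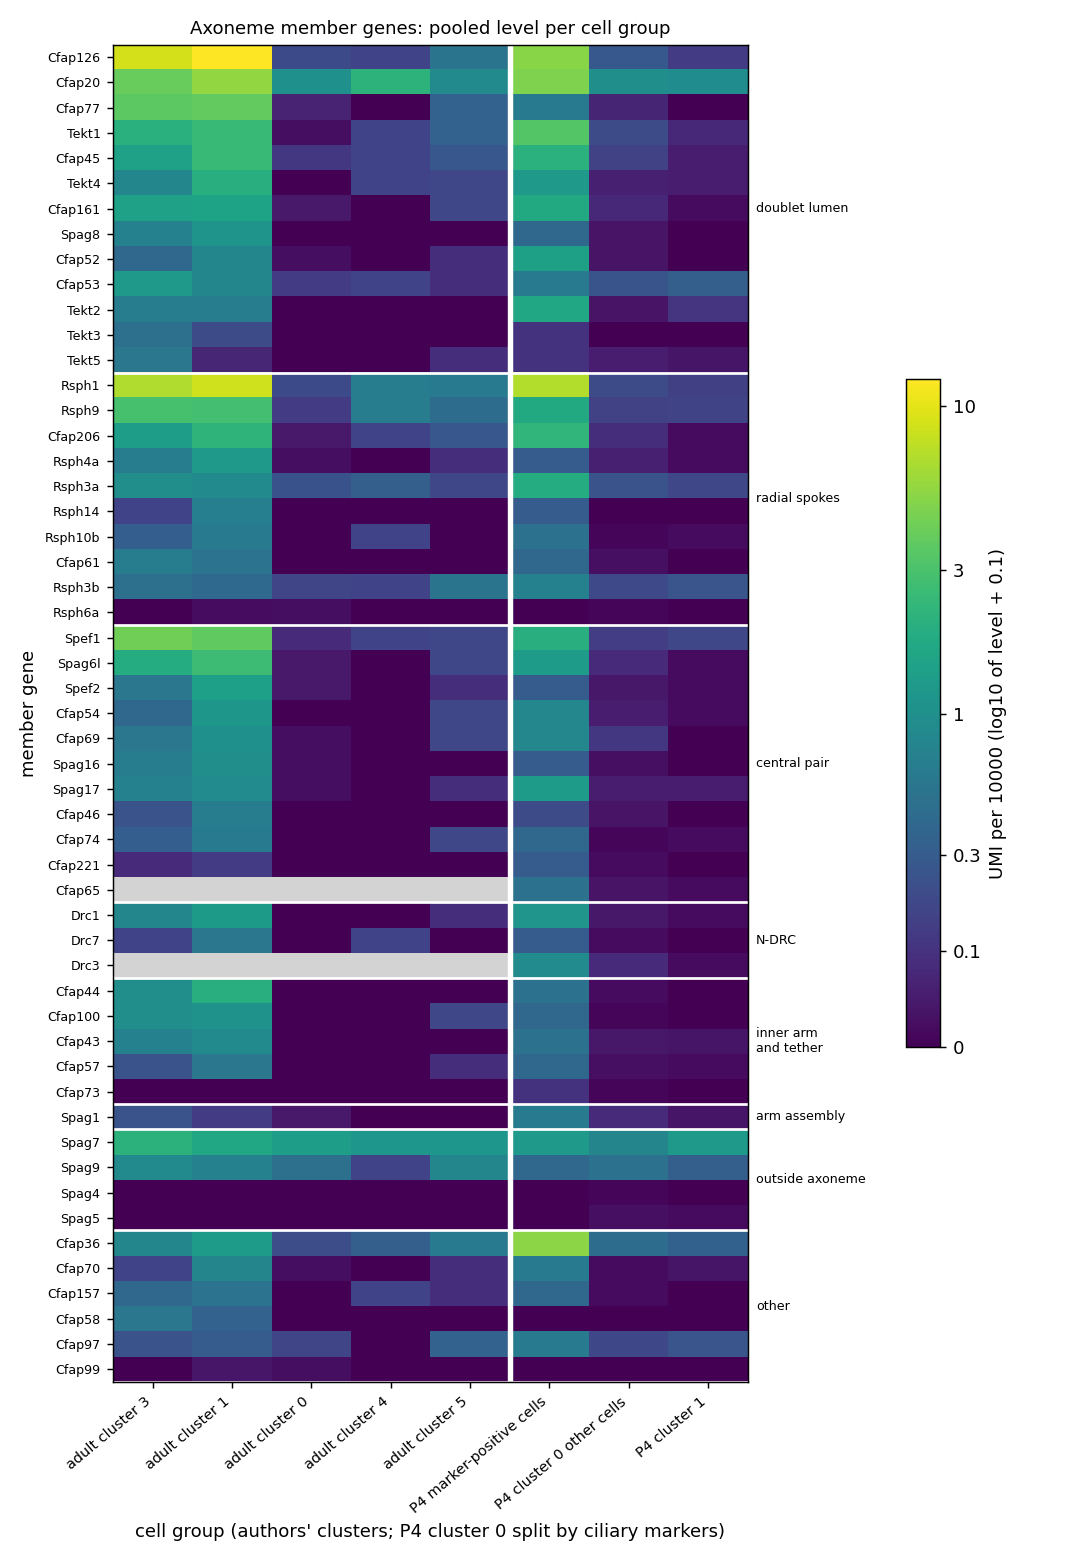
Pooled level of each member with a UMI (rows, grouped by role) in each group of cells (columns), as UMI per 10000 on a colour scale of log10(level + 0.1); grey marks symbols with no row in the adult table. Adult clusters 3 and 1 and the P4 marker-positive cells are bright in nearly the same rows, with Cfap126 at 8.85, 12.2 and 5.15 UMI per 10000, while Spag7 and Cfap20 are visible in every column.

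Of the 55 members in the adult table, 48 had a UMI in cluster 1, 46 in cluster 3 and 28 in cluster 0. Spag6, Spag11a, Spag11b and Spag17os had none in either library, and Cfap73, Spag4 and Spag5 had none in the adult. Spag6 and its near copy Spag6l could share reads, as could Rsph3a and Rsph3b, so the split within each pair is uncertain. Spag17os is annotated antisense to Spag17, and Spag11a and Spag11b are defensin-like genes known from the epididymis.

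Proteins of the doublet lumen gave the largest summed level of any role in adult clusters 3 and 1, at 26.1 UMI per 10000 in cluster 3, 33.7 in cluster 1 and 1.62 in cluster 0. Cfap126, also called Flattop, lies in the doublet and is needed for basal body docking in mouse multiciliated cells, and it had the highest level of the members in adult clusters 3 and 1. It had 109 UMI in cluster 3 (8.85 per 10000; 7.27 to 10.7), 725 in cluster 1 (12.2; 11.4 to 13.2) and 10 in cluster 0 (0.195; 0.0935 to 0.359). A Cfap126 UMI was present in 86.5% of cluster 3 cells, 94.0% of cluster 1 cells and 7.69% of cluster 0 cells. Cfap20, a protein of the inner junction between the tubules of a doublet, reached 3.90 (2.87 to 5.17) in cluster 3 and 5.59 (5.0 to 6.22) in cluster 1 but was also present at 1.03 (0.774 to 1.35) in cluster 0. Cfap77, which lies at the outer junction in Tetrahymena, stood at 3.57 (2.60 to 4.80) in cluster 3, 3.76 (3.29 to 4.29) in cluster 1 and 0.0585 (0.0121 to 0.171) in cluster 0. Cfap45, another lumen protein, stood at 1.46, 2.46 and 0.117 in clusters 3, 1 and 0.

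The tektins form filaments inside the doublet, and the 5 genes were far from equal. Tekt1 led with 2.03 UMI per 10000 (1.31 to 3.0) in cluster 3 and 2.53 (2.14 to 2.97) in cluster 1, against 0.0195 in cluster 0, where it had 1 UMI. Tekt4 followed with 0.812 (0.389 to 1.49) in cluster 3 and 1.94 (1.60 to 2.33) in cluster 1, and Tekt2 with 0.649 (0.280 to 1.28) and 0.658 (0.468 to 0.900). Tekt3 and Tekt5 rested on few molecules, with 6 and 7 UMI in cluster 3 and 12 and 4 UMI in cluster 1. Cluster 0 had no UMI of Tekt2, Tekt3, Tekt4 or Tekt5, which allows up to 0.0585 per 10000 for each (3 counts).

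Radial spoke genes summed to 14.4 UMI per 10000 in cluster 3, 18.0 in cluster 1 and 0.819 in cluster 0. The spoke head gene Rsph1 was second to Cfap126 among members in clusters 3 and 1, with 84 UMI in cluster 3 (6.82 per 10000; 5.44 to 8.44), 509 in cluster 1 (8.59; 7.86 to 9.37) and 10 in cluster 0 (0.195; 0.0935 to 0.359). Its partners in the spoke head were lower: Rsph9 stood at 2.92 (2.05 to 4.05) in cluster 3 and 2.84 (2.42 to 3.30) in cluster 1, and Rsph4a at 0.649 (0.280 to 1.28) and 1.22 (0.951 to 1.53). Cfap206, which holds the base of a spoke in Tetrahymena, had 1.38 (0.804 to 2.21) in cluster 3 and 2.19 (1.83 to 2.61) in cluster 1. Rsph3a, for a spoke stalk protein, was the spoke gene with the most UMI in cluster 0, at 0.974 (0.503 to 1.70) in cluster 3, 0.895 (0.670 to 1.17) in cluster 1 and 0.234 (0.121 to 0.409) in cluster 0. Rsph6a, known as the sperm counterpart of Rsph4a, had 0 UMI in cluster 3.

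Genes of the central pair summed to 9.66 UMI per 10000 in cluster 3, 13.3 in cluster 1 and 0.214 in cluster 0. Spef1, which bundles the central microtubules, had 52 UMI in cluster 3 (4.22 per 10000; 3.15 to 5.54), 219 in cluster 1 (3.70; 3.22 to 4.22) and 4 in cluster 0 (0.0780; 0.0213 to 0.200). Spef1 overlaps the coding gene Cenpb on the same strand, so reads of the 2 genes may not be fully separated. Spag6l, a central pair protein, had 1.87 (1.18 to 2.80) in cluster 3, 2.63 (2.24 to 3.08) in cluster 1 and 0.0390 (0.00472 to 0.141) in cluster 0. Spef2, of a central pair projection, had 0.568 (0.228 to 1.17) in cluster 3 and 1.42 (1.13 to 1.76) in cluster 1. Cfap54 had 0.406 in cluster 3 and 1.18 in cluster 1, and Cfap69 had 0.568 and 1.01. No central pair gene reached the level of Rsph1 in either cluster.

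The adult table's members of the nexin-dynein regulatory complex, Drc1 and Drc7, and of the inner arm partners had no UMI in cluster 0. Drc1 and Drc7 summed to 0.974 UMI per 10000 in cluster 3 and 1.86 in cluster 1, most of it Drc1, at 0.812 (0.389 to 1.49) and 1.28 (1.01 to 1.61). Cfap43, Cfap44, Cfap57, Cfap73 and Cfap100, which tether or regulate inner dynein arms, summed to 2.92 in cluster 3 and 4.47 in cluster 1. Cfap44 led them with 12 UMI in cluster 3 (0.974 per 10000; 0.503 to 1.70) and 116 in cluster 1 (1.96; 1.62 to 2.35). Cfap100 had 0.974 (0.503 to 1.70) in cluster 3 and 1.06 (0.817 to 1.36) in cluster 1, and Cfap43 had 0.731 (0.334 to 1.39) and 0.878 (0.656 to 1.15). Under their synonyms Ccdc108 and Lrrc48, which the adult table does list, Cfap65 stood at 0.649 in cluster 3 and 1.38 in cluster 1, and Drc3 at 1.06 and 1.65. In cluster 0, Ccdc108 had 0 UMI and Lrrc48 had 7, or 0.136 per 10000 (0.0549 to 0.281). Spag1, which acts in the cytoplasm when dynein arms are put together, had 8 UMI in cluster 1.

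Members with no axonemal site assigned here were led by Cfap36, at 0.812 UMI per 10000 (0.389 to 1.49) in cluster 3, 1.33 (1.06 to 1.66) in cluster 1 and 0.214 (0.107 to 0.384) in cluster 0. Cfap70 had 0.162 in cluster 3 and 0.793 in cluster 1, Cfap157 0.406 and 0.523, and Cfap58 0.568 and 0.354. Cfap97 did not follow the others, with 0.244 (0.0502 to 0.712) in cluster 3, 0.304 (0.180 to 0.480) in cluster 1 and 0.175 (0.0802 to 0.333) in cluster 0, intervals that overlap. Cfap97 overlaps the coding gene Snx25 on the opposite strand. On the genome the members are scattered over 16 chromosomes (GENCODE M21, GRCm38): Cfap126 lies at chr1:171113918-171126967 on the plus strand, Rsph1 at chr17:31255019-31277383 on the minus strand and Tekt1 at chr11:72344722-72362442 on the minus strand.

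A small set of Spag genes has known roles outside the axoneme, and their levels did not follow the cilia. Summed over these genes, the level was 3.0 UMI per 10000 in cluster 3, 2.43 in cluster 1 and 1.85 in cluster 0. Spag7 stood at 2.11 (1.38 to 3.09) in cluster 3, 1.70 (1.39 to 2.07) in cluster 1 and 1.36 (1.06 to 1.72) in cluster 0. Spag9, a scaffold of MAP kinase signalling, stood at 0.893 (0.446 to 1.60), 0.726 (0.525 to 0.978) and 0.487 (0.315 to 0.720) in the same clusters.

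**Figure D2:**
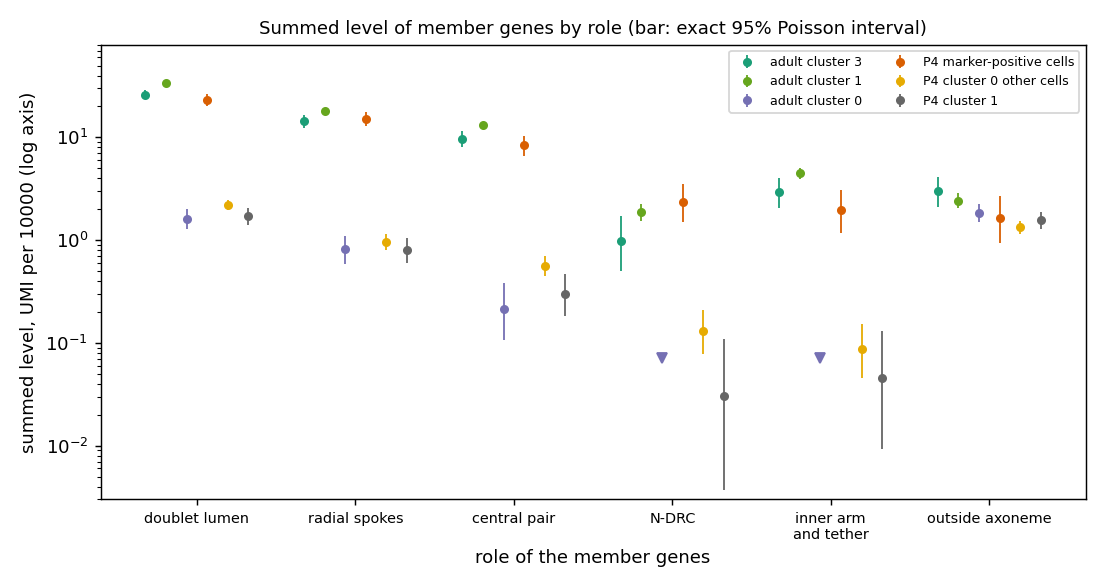
Summed level of the members of each role (UMI per 10000, log axis) in 6 groups of cells; points are pooled levels, bars exact 95% Poisson intervals, and triangles the upper bound where no UMI was found. Adult clusters 3 and 1 and the P4 marker-positive cells lie above the other groups in the 5 axoneme roles, while all 6 groups lie between 1.33 and 3.0 UMI per 10000 for the members outside the axoneme.

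Cluster 1 was set against cluster 0 to give the size of the contrast between multiciliated-like and secretory-like cells. Clusters were made from expression, so the contrast describes them and tests nothing. A member counted as measured when at least 10% of the cells on either side had a UMI and the pooled count was at least 20, and a difference was called at 2-fold on the log2(level + 0.1) scale. Of the 55 members, 41 were measured: 38 were higher in cluster 1, none was lower, and Spag7, Spag9 and Rsph3b lay within 2-fold. Over all 5445 genes measured in this comparison, 23.2% were called higher and 11.9% lower. The median log2 difference was 3.17 over the measured members and 0.19 over all measured genes, and the summed member level was 15.5 times higher in cluster 1 (13.7 to 17.7). On the log2 scale Cfap126 stood 5.39 higher in cluster 1, Rsph1 4.88, Cfap77 4.61, Tekt1 4.46, Spef1 4.41, Spag6l 4.30, Cfap206 4.04 and Rsph9 3.63. Several members had no UMI at all in cluster 0 and allow a lower bound only. The exact interval of the ratio began at 26.8 for Cfap44, 26.6 for Tekt4, 17.4 for Drc1 and 16.0 for Cfap54.

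Proportions among members were taken in both clusters. Per 100 UMI of Cfap126, Rsph1 had 70.2 UMI in cluster 1 and 100 in cluster 0, where both genes had 10 UMI. Cfap20 had 45.7 in cluster 1 and 530.0 in cluster 0, and Spag7 had 13.9 and 700.0. These cluster 0 values rest on 10 Cfap126 UMI, and the part of RNA set free from other cells was not tested.

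Axoneme genes outside the symbol rule differed in the same direction between these clusters. Of 11 listed genes for other doublet lumen proteins, 7 were measured and all 7 were higher in cluster 1, among them Saxo2 at 3.73 in cluster 1 and 0.117 in cluster 0. All 7 of the measured radial spoke genes, such as Nme5 at 4.68 and 0.0780, all 5 of the central pair genes, such as Ak7 at 1.74 and 0, and all 7 of the regulatory complex genes, such as Iqca at 1.59 and 0, were higher in cluster 1. Of 16 dynein arm genes listed, 15 were measured and all 15 were higher in cluster 1.

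The 250 bases before the start of these genes were searched for the X-box, the motif of RFX factors, which act with Foxj1 on cilium genes. RefSeq promoters (GRCm38.p6) matched 44 of the 57 members. The letters GTTGCC, an arm of the X-box, lay on either strand in 11 of the 44 (25%), against 11.8% of all 27025 genes with a promoter. The full X-box palindrome, with both arms and free bases between, was in 0 of 44 and in 0.444% of all genes, and the forkhead core TGTTTAC was in 3 of 44 (6.82%) and in 3.54% of all genes, each on either strand. The palindrome was searched as a fixed pattern, with a set number of free bases between the arms. X-boxes with another spacing or looser arms were not searched, so 0 of 44 does not exclude them in members. The windows below belong to the members highest in adult cluster 1 among those with a window wholly outside the annotated gene body. They read 5′ to 3′ on the strand of the gene, with the match in capitals, as GTTGCC or its reverse complement GGCAAC.
Cfap20 chr8:95434943-95434978 minus: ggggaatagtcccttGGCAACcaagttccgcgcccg
Cfap44 chr16:44394655-44394690 plus: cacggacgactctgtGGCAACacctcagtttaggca
Cfap161 chr7:83794885-83794920 minus: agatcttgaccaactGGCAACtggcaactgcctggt
Spag16 chr1:69826852-69826887 plus: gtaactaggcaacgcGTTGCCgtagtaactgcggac
Tekt2 chr4:126325690-126325725 minus: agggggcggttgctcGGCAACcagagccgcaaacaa
Cfap74 chr4:155409059-155409094 plus: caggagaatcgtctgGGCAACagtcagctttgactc
A match is a run of letters and does not show binding. Genes with these windows ranged widely in adult cluster 1, with Cfap20 at 5.59, Cfap44 at 1.96, Cfap161 at 1.54, Spag16 at 0.979, Tekt2 at 0.658 and Cfap74 at 0.625 UMI per 10000.

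Clusters 3 and 1 both carried the axoneme genes, and cluster 3 carried less of them. The summed member level in cluster 3 was 0.771 times that of cluster 1 (0.712 to 0.833). Of 41 measured members, none was called higher in cluster 3, 7 were lower and 34 lay within 2-fold. Over all 4866 genes measured, 6.45% were called higher in cluster 3 and 10.2% lower. The median log2 difference was -0.51 over the members and -0.08 over all genes, with 32 of the 41 members below 0 against 54.9% of all genes.

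The 7 members called lower in cluster 3 came from several roles. Cfap70 had 2 UMI in cluster 3 and 47 in cluster 1, a ratio of 0.205 (0.0241 to 0.782). Rsph14, a spoke gene, had 2 and 41 UMI, with a ratio of 0.235 (0.0275 to 0.903). The regulatory complex gene Drc7 had 2 and 34 UMI, and its ratio of 0.283 (0.0329 to 1.10) could not be told from 1 at this depth. In the central pair the ratio was 0.344 (0.108 to 0.840) for Cfap54, 0.401 (0.156 to 0.863) for Spef2 and 0.370 (0.0731 to 1.16) for Cfap46. Tekt4 had 10 UMI in cluster 3 and 115 in cluster 1, with a ratio of 0.418 (0.195 to 0.797). With a pseudocount of 0.5 none of the members was called lower in cluster 3, and by a mean over cells 14 were. The shares of all genes called under these settings are not given here, so these counts stand without a background.

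Abundant members lay within 2-fold between these clusters. Cfap77 had a ratio of cluster 3 to cluster 1 of 0.949 (0.671 to 1.32), Rsph9 of 1.03 (0.698 to 1.48) and Spef1 of 1.14 (0.827 to 1.55). Cfap20 had 0.697 (0.504 to 0.946), Cfap126 0.723 (0.586 to 0.885) and Rsph1 0.794 (0.622 to 1.0), so that Cfap20 and Cfap126 were lower in cluster 3 beyond counting error. The same held for Cfap45, at 0.593 (0.342 to 0.971), and Cfap44, at 0.498 (0.250 to 0.903). Cfap44 lay within 2-fold only with the pseudocount. Tekt5 missed the count filter and is named after its values were seen: 7 UMI in 6 of the 37 cells of cluster 3 and 4 UMI in cluster 1 gave a ratio of 8.42 (2.14 to 39.2). Tekt3, below the filter as well, had a ratio of 2.40 (0.741 to 6.92).

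**Figure D3:**
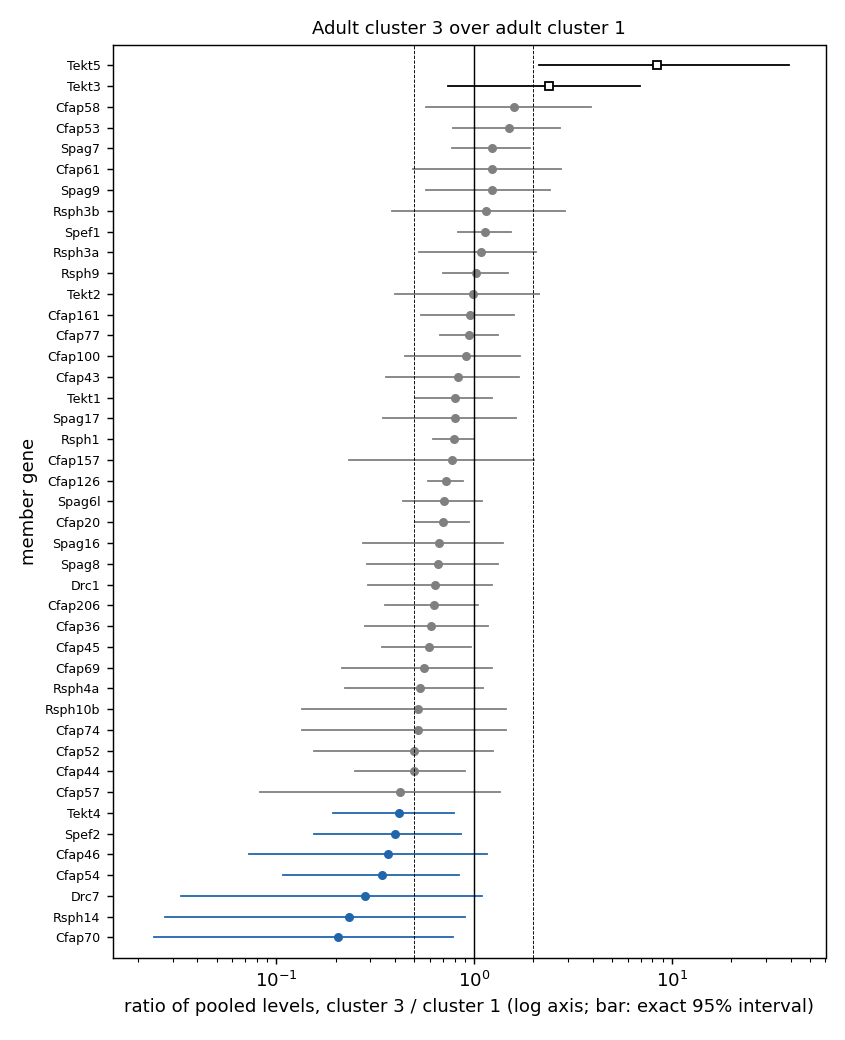
Ratio of pooled levels, adult cluster 3 over adult cluster 1 (log axis), for each measured member, with exact 95% intervals. Blue marks members called at least 2-fold lower, grey those within 2-fold, and open squares Tekt3 and Tekt5, which missed the count filter; dashed lines mark 2-fold. Most points lie left of 1, with Cfap70 lowest at 0.205 and Tekt5 highest at 8.42.

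Other measures moved with cluster 3. Immediate early and heat shock genes of the dissociation stress list summed to 194.1 UMI per 10000 in cluster 3 and 62.2 in cluster 1, with 11 of 15 at least 2-fold higher, and Hspb1 at 17.1 and 0.422. Secretory markers summed to 32.2 in cluster 3 and 17.9 in cluster 1, with Ovgp1, the oviduct glycoprotein, at 24.6 and 6.16. The other 9 secretory markers summed to 7.63 in cluster 3 and 11.7 in cluster 1, and of the 4 measured secretory markers Ovgp1 was higher in cluster 3, Wfdc18 lower, at 0.974 and 6.68, and 2 lay within 2-fold. Of the 15 multiciliated markers outside the module, 6 were lower in cluster 3 and 9 within 2-fold. Foxj1 stood at 5.03 in cluster 3 and 8.09 in cluster 1. Sec14l3 had 0 and 140 UMI. Axoneme genes outside the symbol rule were also mostly within 2-fold: 2 of 6 measured central pair genes (Hydin and Ak7), 1 of 8 doublet lumen genes (Saxo2), 1 of 7 regulatory complex genes (Iqcd), 1 of 7 spoke genes (Morn3) and 4 of 15 dynein arm genes were called lower in cluster 3, and none higher. Saxo2 stood at 0.974 in cluster 3 and 3.73 in cluster 1. The part of stress or of secretory RNA in the lower member level was not tested.

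In the authors' clustering of both ages together, cluster 3 fell into 2 main portions. The 17 cells placed with most of cluster 1 had a median depth of 1086 UMI and a member level of 65.9 (57.0 to 75.9). The 19 cells placed in merged cluster 6 had a median depth of 4784 UMI and a level of 59.8 (54.8 to 65.1). The 178 cells of cluster 1 in the same merged cluster stood at 81.8 (79.4 to 84.2), above both portions.

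The number of members detected per cell gave the same order. At full depth a cell had a median of 9 members with a UMI in cluster 3 (range 1 to 28), 15 in cluster 1 (0 to 32) and 1 in cluster 0 (0 to 6). Median depth per cell differed, at 3657, 3165 and 4107.5 UMI in clusters 3, 1 and 0. After each cell was thinned to 1000 UMI, which left out 8, 42 and 18 shallower cells, the medians were 5 (0 to 12) in cluster 3, 7 (0 to 14) in cluster 1 and 0 (0 to 3) in cluster 0. At that depth a member was present in 96.6%, 98.6% and 35.7% of the cells of these clusters. The only cell of cluster 1 with no member had 646 UMI in all.

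**Figure D4:**
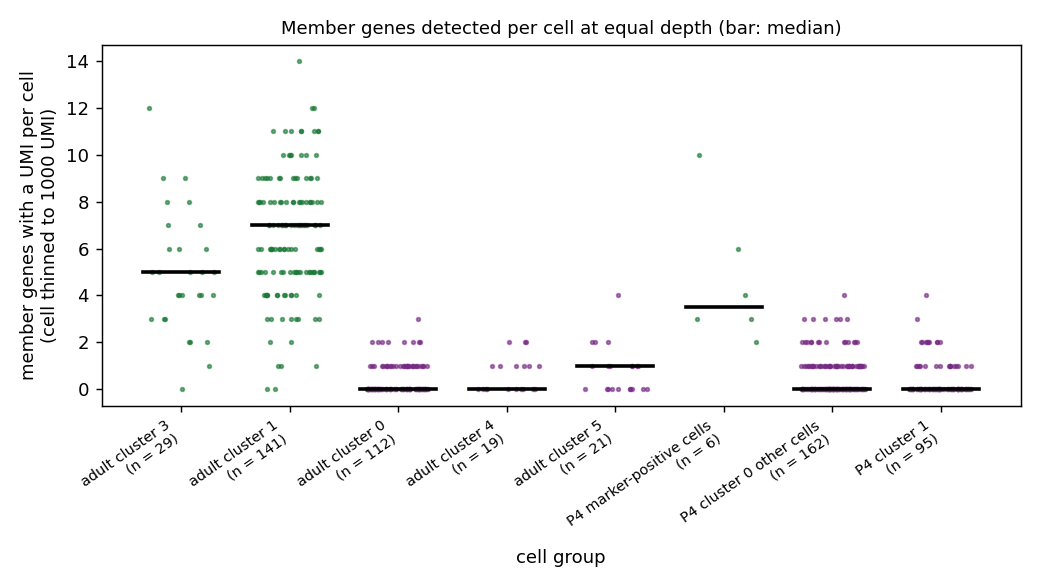
Number of member genes with a UMI in each cell after thinning to 1000 UMI (points, spread sideways only; bars are medians), by group of cells; green marks the groups with multiciliated markers. Medians are 5 in adult cluster 3 and 7 in cluster 1, against 0 or 1 in the other adult clusters, and 3.5 in the 6 P4 marker-positive cells against 0 in the other P4 cells.

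At P4 the members were uneven over cells. Of 16 members measured between the P4 clusters, 6 were called higher in cluster 0, none lower, and 10 lay within 2-fold. Over all 8686 genes measured, 1.36% were called higher in P4 cluster 0 and 1.34% lower. The summed level was 1.87 times that of cluster 1 (1.66 to 2.12). Rsph1 had 96 UMI in cluster 0 and 10 in cluster 1, a ratio of 4.35 (2.27 to 9.37). Cfap126 had 88 and 9 UMI with a ratio of 4.44 (2.23 to 10.0), and Tekt1 59 and 5 UMI with a ratio of 5.35 (2.17 to 17.1). Cfap45, with 41 and 3 UMI, and Spag6l, with 24 and 1 UMI, were also called. Cfap69, a central pair gene, had 24 and 0 UMI and was called as well, with an interval of the ratio that began at 2.73. Without the 6 cells described next, none of these members was called, and the log2 ratio of the summed level was 0.23 in place of 0.91.

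In P4 cluster 0, 6 cells had at least 30 UMI per 10000 of the 15 multiciliated markers, none of which is a member, and are called marker-positive. Their marker level ran from 38.7 to 158.8, and the next cell below the threshold had 27.0. They were deep cells, with a median of 18605.5 UMI against 7458 in the other P4 cells. Members summed to 60.2 UMI per 10000 (55.4 to 65.3) in them, against 6.01 (5.61 to 6.44) in the other cells of P4 cluster 0. Single cells held 19 to 39 members and 36.7 to 107.5 member UMI per 10000, so that all 6 lay above the highest of the other P4 cells, at 27.0. In the order of their marker level, the 6 cells had 107.5, 63.8, 46.2, 66.8, 36.7 and 52.9 member UMI per 10000. The 3 cells just below the threshold had 11, 27 and 16 members. The authors' clustering of both ages together placed 14 P4 cells with the 178 cells of adult cluster 1, 11 from P4 cluster 0 and 3 from P4 cluster 1. These 14 had a member level of 51.4 (47.4 to 55.6) and a median of 8 members per cell. How far they overlap the marker-positive cells is not given here, so the count of such P4 cells depends on how they are chosen.

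By role, the marker-positive cells held 23.2 UMI per 10000 (20.3 to 26.4) of doublet lumen genes, against 2.19 in the other cells of P4 cluster 0 and 1.72 in P4 cluster 1. Spoke genes stood at 15.2 (12.8 to 17.8), against 0.968 and 0.800, and central pair genes at 8.35 (6.63 to 10.4), against 0.565 and 0.302. Genes of the regulatory complex stood at 2.37 (1.5 to 3.56), against 0.132 and 0.0302, here with Drc3 included. For members with roles outside the axoneme the groups did not separate, at 1.65 (0.943 to 2.68) in the marker-positive cells, 1.33 in the other cells of cluster 0 and 1.57 in cluster 1. Rsph1 led the marker-positive cells with 68 UMI in 6 of 6 cells (7.01 per 10000; 5.44 to 8.89), followed by Cfap36 with 51 UMI (5.26; 3.91 to 6.91) and Cfap126 with 50 UMI (5.15; 3.83 to 6.79). In adult cluster 1 the order was Cfap126, then Rsph1, with Cfap36 below both. Markers outside the module that differed between the P4 clusters included Foxj1, at 1.18 in cluster 0 and 0.211 in cluster 1, and the precursor gene Deup1, at 0.650 and 0.0151.

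These 6 of 263 cells held 584 of the 1744 member UMI at P4, or 33.5% (exact binomial interval 31.3 to 35.8), and 4.57% of all UMI. The share differed by gene. It was 77.8% (52.4 to 93.6) for the doublet lumen gene Cfap52, 64.2% (54.3 to 73.2) for Rsph1, 59.3% (38.8 to 77.6) for Tekt2 and 51.5% (41.2 to 61.8) for Cfap126. It was 18.9% (14.2 to 24.4) for Cfap20, still above the 4.57% of all UMI, while for Spag7, at 5.94% (3.11 to 10.1), and Spag9, at 4.26% (1.17 to 10.5), the intervals held that share. Cfap20 was found in 52.5% of the other cells of P4 cluster 0 and 44.2% of P4 cluster 1. In those other P4 cells, Cfap20 and Spag7 were the members with the most UMI.

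Over whole libraries, 32 members were measured between the ages, and 25 were called higher in the adult, none lower and 7 within 2-fold, against 11.5% of all 7283 genes measured called higher and 10.4% lower. For comparisons across ages, levels were taken over the 26897 genes listed in both tables. The members' summed level was then 41.5 in the adult and 9.31 at P4, a ratio of 4.46 (4.22 to 4.71). Cfap77 stood at 1.99 in the adult and 0.0815 at P4, with a ratio of 24.4 (14.5 to 44.2), and Cfap44 at 0.930 and 0.0381, with a ratio of 24.4 (11.5 to 62.0). Cfap126 had a ratio of 11.7 (9.49 to 14.6), Spag6l of 9.78 (6.42 to 15.5), Rsph1 of 7.74 (6.29 to 9.60) and Spef1 of 7.43 (5.48 to 10.3). Among other members, Cfap100 had a ratio of 20.6 (8.45 to 65.2), Spag16 of 14.9 (6.51 to 42.1), Spef2 of 14 (7.05 to 31.5), Spag8 of 12.5 (6.04 to 30.1), Tekt4 of 7.77 (4.92 to 12.8) and Rsph9 of 6.0 (4.38 to 8.35). Axoneme genes outside the symbol rule went the same way, with 9 of 9 measured dynein arm genes, 6 of 6 spoke genes, 3 of 3 central pair genes, 5 of 6 regulatory complex genes and 3 of 5 doublet lumen genes higher in the adult. The 7 members within 2-fold were Cfap36, Cfap53, Cfap97, Rsph3a, Rsph3b, Spag7 and Spag9. The adult library held the 37 and 183 cells of clusters 3 and 1 and the P4 library 6 marker-positive cells, and fewer such cells cannot be told apart from less RNA per cell in these sums. Age, library, depth and gene annotation cannot be told apart either.

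Adult cluster 1 was therefore set against the 6 P4 marker-positive cells, which carry markers of the same kind. The summed member level was 78.7 in adult cluster 1 and 66.1 in the P4 cells, a ratio of 1.19 (1.09 to 1.30). Of 42 measured members, 10 were called higher in the adult, 3 lower, and 29 lay within 2-fold. Over all 4943 genes measured, 22.2% were called higher in the adult and 12% lower, so that the share of members higher was near the background. Foxj1, 1 of the 15 markers whose summed level chose the P4 cells, stood at 8.24 in adult cluster 1 and 8.70 in the P4 cells.

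Among the members higher in adult cluster 1, Cfap77 had the highest ratio, with 223 UMI in 113 of 183 adult cells and 6 UMI in 4 of 6 P4 cells, at levels of 3.84 and 0.696 and a ratio of 5.51 (2.49 to 15.2). Spef2 had a ratio of 4.15 (1.37 to 20.5), Rsph4a of 3.56 (1.17 to 17.7) and Cfap44 of 3.44 (1.43 to 10.8). Cfap126 stood at 12.5 and 5.80, with a ratio of 2.15 (1.61 to 2.92). The intervals of Cfap46, Spag16, Spag8 and Cfap100, also called higher, reached below 1. Cfap58 had 21 UMI in the adult cells and 0 in the P4 cells, and the interval of its ratio began at 0.772, so that no difference was detectable at this depth although it passed the 2-fold rule.

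The members lower in adult cluster 1 were Cfap36, Tekt2 and Rsph3a. Cfap36, a partner of the small GTPase ARL3, had 79 UMI in 63 of 183 adult cells and 51 UMI in all 6 P4 cells, at levels of 1.36 and 5.92 and a ratio of 0.230 (0.159 to 0.333). It was also present at 0.447 UMI per 10000 in the other cells of P4 cluster 0. Tekt2 stood at 0.671 in the adult and 1.86 in the P4 cells, with a ratio of 0.361 (0.197 to 0.693), and Rsph3a at 0.912 and 2.09, with a ratio of 0.437 (0.252 to 0.792). After thinning to 1000 UMI per cell the direction of Tekt2 turned, with a log2 difference of 2.91 in place of -1.34. Tekt2 had only 16 UMI in the 6 P4 cells before thinning. The turn therefore cannot be told from counting error. Rsph1, Cfap20, Cfap45 and Drc1 lay close to 1, with ratios of 1.11 (0.860 to 1.45), 1.07 (0.782 to 1.49), 1.08 (0.676 to 1.82) and 1.02 (0.541 to 2.14).

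**Figure D5:**
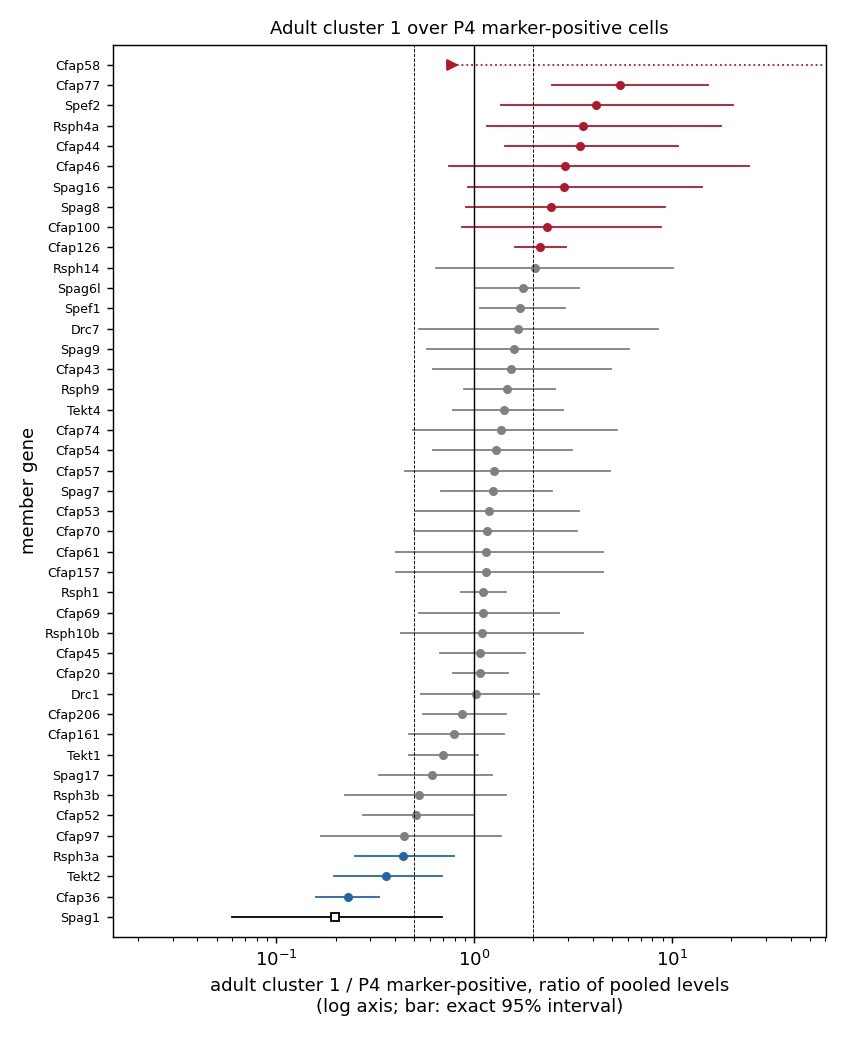
Ratio of pooled levels, adult cluster 1 over the 6 P4 marker-positive cells (log axis), for each measured member, with exact 95% intervals. Red and blue mark members called at least 2-fold higher and lower in the adult on the log2(level + 0.1) scale, the dotted line Cfap58, with no UMI at P4 (triangle: lower bound of its interval), and the open square Spag1, which missed the count filter. Cfap77 has the highest ratio, at 5.51, and Cfap36 the lowest of the measured members, at 0.230.

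The summed level of multiciliated precursor genes differed far more between these cells than that of the members. It was 0.705 UMI per 10000 in adult cluster 1 and 17.3 in the P4 cells. Of 6 precursor genes listed, 3 were measured and all 3 were lower in adult cluster 1, while Gmnc had no UMI in the P4 cells. Mcidas, a switch for multiciliated fate, had 0 and 22 UMI, Ccno, needed to multiply basal bodies, 4 and 40 UMI, and Myb, a transcription factor of early multiciliated cells, 29 and 62 UMI. The other axoneme lists lay mostly within 2-fold: 7 of 8 doublet lumen genes, 5 of 7 spoke genes, 6 of 7 central pair genes and 6 of 6 regulatory complex genes. Among dynein arm genes 4 of 15 were higher in adult cluster 1 and none was lower. Of all 4943 genes measured in this comparison, 22.2% were called higher and 12% lower. The share of dynein arm genes called higher was therefore near the background, and Dnah5 was among these 4. Hydin, Dnah5, Dnah9 and Dynlrb2 in these lists are also among the markers that chose the P4 cells. Proliferating markers summed to 0.654 in adult cluster 1 and 8.12 in the P4 cells, with Top2a and Cdk1 lower and Pcna higher in the adult. Fibroblast markers summed to 1.53 and 6.03, immune markers to 0.482 and 2.55, mesothelial markers to 0.155 and 2.44 and endothelial markers to 0.172 and 2.09. The P4 cells had no UMI of the immune markers Ptprc, Cd52, Lyz2, Cd3e, Tyrobp and Fcer1g or of the endothelial markers Cdh5, Kdr, Tie1 and Emcn. Only Cd74 was measured among immune and only Plvap among endothelial markers, both lower in the adult, and no mesothelial marker was measured. The part of proliferation or of other cells' RNA in the members' levels was not tested.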

How the data were processed

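Per the labels' protocols, libraries were made with the 10x Chromium 3′ V2 kit, and per the submitters' processing notes with Cell Ranger, Seurat 2.3.4 and mm10. The values analysed are raw UMI counts per gene and cell, as the authors deposited them, with the authors' cluster numbers. The adult table holds 807 columns, of which 401 barcodes stand under both of its prefixes; each of the 406 distinct barcodes was counted once, from the first prefix. Both prefixes gave nearly the same member UMI (5709 and 5745), and no barcode was shared between the ages.

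Counts were pooled by cluster and divided by the group's UMI, per 10000 (Python 3.11.15, numpy 2.4.6, pandas 2.3.3, scipy 1.17.1, matplotlib 3.10.9). Log2 differences used a pseudocount of 0.1 per 10000. Levels have exact Poisson intervals, ratios exact conditional intervals and shares Clopper-Pearson intervals, all 95% and for counting error only. A floor is 3 counts over the group. The calculation was tested on simulated counts. No doublet caller was run; leaving out the 5% of cells with the most UMI was an alternative. All members were counted, and those named are the 5 highest of each role in adult cluster 1 and those called in a comparison, up to 12 per direction. The members, gene lists, roles and marker threshold were chosen with earlier results of these data known. The comparison planned as P4 marker-positive cells over adult cluster 1 is given the other way up, with the same counts.

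Gene overlaps come from GENCODE M21 and promoters from RefSeq GRCm38.p6, the build that mm10 names. In GENCODE M21, 14 of the 57 members overlap a protein-coding gene, and 13 overlap another gene on the same strand; the strand setting of the counting is not given in the sources used here.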

Additional observations from a re-analysis of the deposited data

How the results depend on the processing

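Of the recomputed counts and summed ratios, 88 stayed close and 32 moved, as given here. A stricter filter or thinning can leave fewer members measured, and a larger pseudocount makes log2 differences smaller. The part of this, or of any other cause, in each change was not tested. No paired analysis was possible because each age has 1 library. For adult cluster 1 over 0, 38 members were higher, 21 with a UMI required in 25% of cells and 15 after thinning to 1000 UMI; the log2 summed ratio of 3.96 was 3.70 against clusters 0, 4 and 5. For adult cluster 3 over 1, 7 members were lower, 14 by a mean over cells, 3 with the 25% filter and 0 with a pseudocount of 0.5; 1 was higher without a filter and 1 after thinning, and the log2 summed ratio of -0.38 was -0.60 by the mean over cells, -0.52 after thinning and -0.50 without the 5% of cells with the most UMI. For P4 cluster 0 over 1, 6 members were higher, 11 without a filter and 0 with a pseudocount of 0.5, the 25% filter, thinning, without the top 5% or without marker-positive cells; the log2 summed ratio of 0.91 was 0.67 by the mean, 0.44 without the top 5% and 0.23 without marker-positive cells. For adult over P4, 25 members were higher, 15 with a pseudocount of 0.5, 9 with the 25% filter and 11 after thinning; the log2 summed ratio of 2.16 was 2.63 by the mean, 2.65 after thinning and 2.68 without the top 5%. For adult cluster 1 over P4 marker-positive cells, 10 members were higher and 5 with a pseudocount of 0.5; 3 were lower, 5 without a filter, 8 without the top 5% and 1 at a marker threshold of 20; the log2 summed ratio of 0.25 was 0.67 after thinning and 0.53 at a threshold of 20. There the log2 difference of Tekt2 was 2.91 after thinning in place of -1.34, a turn that cannot be told from counting error. No summed ratio changed direction. Shares of all genes called under the alternative settings are not given here, so the counts of members under them stand without a background. Leaving out cluster 3 cells with more secretory UMI per 10000 than the median cluster 0 cell removed none of the 37 cells. The median cell had 138.3 in cluster 0 and 22.4 in cluster 3. This setting therefore left the data unchanged and could not address smaller amounts of secretory RNA. With few UMI per gene, differences under 2-fold were mostly not detectable, and 6 P4 cells limit every value that rests on them.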
